A study of Mus musculus with 22 samples.

Results

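Gfap, Vim, Serpina3n, Fbln5, Cd44, Steap4, Timp1 and Cd109 are 8 genes known to be induced in reactive astrocytes, and they were followed across the 6 groups of a whole-brain RNA-seq study of old mice. They were taken by symbol from a table of read counts for 56748 genes, 1 row each, and all 8 were among the 20026 genes tested. The 22 male C57BL/6J mice were 17.5 months old. GW mice had been injected with 0.7 mg/kg pyridostigmine bromide, a cholinesterase inhibitor, and 200 mg/kg permethrin, a pyrethroid insecticide, each day for 10 days from 10 weeks of age. In old age they were given cannabidiol (CBD), a plant cannabinoid that does not intoxicate, at 30 mg/kg every day for 28 days and then on alternate days for 2 weeks, or its vehicle. Lipopolysaccharide (LPS), a bacterial cell-wall component that provokes systemic inflammation, was injected at 0.33 mg/kg on the morning after the last dose, or PBS in its place, and brains were taken 24 h later. GWCBD30LPS (4 mice) were exposed, CBD-treated and given LPS, and GWCBD30 (4 mice) were the same without LPS. GWVehLPS (4 mice) were exposed and had vehicle and LPS, and GWVeh (4 mice) were the same without LPS. CtrlVehLPS (3 mice) were unexposed and had vehicle and LPS, and CtrlVeh (3 mice) were the same without LPS. Unexposed mice on CBD were not analysed here. By its title, the study asks whether the exposure primes the brain's immune response and whether CBD undoes this. The exposure models chemicals met in the Gulf War, and LPS was given to the whole animal.

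Astrocytes answer injury and inflammation by changing their shape and their transcripts, a state called reactive. The change is driven by cytokines, among them ligands of the IL-6 family that act through the transcription factor STAT3, and by factors released from activated microglia such as IL-1 alpha, TNF and C1q. Published lists divide its genes into pan-reactive ones (Gfap, Vim, Serpina3n, Cd44, Steap4 and Timp1 among them), A1 genes, linked with systemic LPS (Fbln5), and A2 genes, linked with ischaemia (Cd109). None of these is made by astrocytes alone: Vim is also strong in endothelial, ependymal and meningeal cells, Cd44 in leukocytes, and Fbln5 and Timp1 in cells of the vessel wall. In a whole-brain extract, fewer cells of a type and less RNA per cell cannot be told apart.

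Library totals ran from 17152595 to 31150515 counts, so that 3 counts corresponded to between 0.0963 and 0.175 CPM, the count scaled to library size, here with TMM, a correction for library composition. Tissue markers set some libraries apart. A score of 12 olfactory bulb neuron genes (mean log2 CPM) was 2.57 to 3.80 in all 3 CtrlVehLPS libraries, in GWVehLPS replicates 2 and 3 and in GWCBD30LPS replicate 4, and 1.34 to 1.93 in the other 16. CtrlVehLPS replicate 1 had a cerebellar neuron score of 2.88, against 6.65 to 7.41 in the other 21 libraries. The 15 astrocyte identity genes, which include Aqp4 and Slc1a3, were detected in every group, with a summed level of 7128 to 9382 CPM over all libraries.

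Per kilobase of exon, the mean level over the 22 libraries was highest for the intermediate filament gene Gfap (75.9 CPM per kb), followed by the serine protease inhibitor gene Serpina3n (15.1), the second filament gene Vim (11.1), the elastic fibre gene Fbln5 (2.30) and the metalloproteinase inhibitor gene Timp1 (1.33). Below 1 CPM per kb stood the hyaluronan receptor gene Cd44 (0.863), Cd109 (0.367), which encodes a membrane-anchored protein that binds TGF-beta receptors in human cells, and Steap4 (0.111), which encodes a metal reductase. Steap4 was at the limit of the table: it had 0 to 19 counts per library and passed the filter on low counts through 3 GWVehLPS libraries and 1 CtrlVehLPS library, so that it had to be higher there. Its values are therefore left out of the medians and of the counts of groups without overlap given below. The other 7 genes reached the filter level of 0.464 CPM in at least 21 libraries.

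On GRCm38, Gfap lies on chromosome 11 (102887336 to 102900912, minus strand), Vim on chromosome 2 (13573927 to 13582826, plus strand), Serpina3n on chromosome 12 (104406729 to 104414329, plus strand) and Fbln5 on chromosome 12 (101746565 to 101819055, minus strand). Cd44 lies on chromosome 2 (102811141 to 102901665, minus strand), Steap4 on chromosome 5 (7960457 to 7982213, plus strand), Timp1 on chromosome X (20870166 to 20874735, plus strand) and Cd109 on chromosome 9 (78615546 to 78716253, plus strand). All are protein-coding genes. All 888 exonic bases of Timp1 lie inside Syn1, an abundant neuronal gene on the other strand, and the 4218 exonic bases of Gfap lie inside the non-coding gene Gm26668, also on the other strand. How the counting used the strand is not given in the sources used here, so the values of Timp1, which is low, are uncertain. Serpina3n belongs to a cluster of near-identical genes and held 96.5% of the counts of the 11 Serpina3 genes listed. Reads that it shares with its copies make its values uncertain to that extent.

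The 250 bases before the start sites of Serpina3n and Fbln5, the 2 genes that passed a test below, and of Gfap, the most abundant of the 8, are shown from RefSeq's promoter table for GRCm38.p6. The promoter set used here held a start site for 7 of the 8 genes and had no entry for Cd109. Serpina3n is on the plus strand at chr12:104406458-104406707, Fbln5 (the outer of 2 listed start sites) on the minus strand at chr12:101819120-101819369 and Gfap on the minus strand at chr11:102897201-102897450. Each is written 5′ to 3′ along its gene and ends at the base before the start site, and capitals mark a match to one of the motifs searched.
Serpina3n: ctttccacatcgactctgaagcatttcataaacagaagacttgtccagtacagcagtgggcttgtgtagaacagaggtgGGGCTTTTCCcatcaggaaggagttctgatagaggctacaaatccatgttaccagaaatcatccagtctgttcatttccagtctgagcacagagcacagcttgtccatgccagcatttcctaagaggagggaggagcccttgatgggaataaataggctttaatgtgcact
Fbln5: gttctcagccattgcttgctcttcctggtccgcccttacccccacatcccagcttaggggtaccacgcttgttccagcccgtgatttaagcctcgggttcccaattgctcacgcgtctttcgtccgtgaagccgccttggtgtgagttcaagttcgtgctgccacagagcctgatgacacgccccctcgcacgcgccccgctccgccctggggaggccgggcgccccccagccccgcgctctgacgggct
Gfap: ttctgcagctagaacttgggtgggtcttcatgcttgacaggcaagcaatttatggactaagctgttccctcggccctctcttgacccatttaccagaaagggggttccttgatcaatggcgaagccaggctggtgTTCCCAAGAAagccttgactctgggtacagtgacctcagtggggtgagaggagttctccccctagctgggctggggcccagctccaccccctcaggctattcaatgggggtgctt
4 motifs were searched on both strands of the 250 bases. They were the STAT site TTCNNNGAA, its form with 4 bases between TTC and GAA, the AP-1 site TGANTCA and an NF-kB site of GGG and TTTCC with 2 bases between. The NF-kB letters stood in Serpina3n (GGGCTTTTCC, at -171 to -162 from the start) and, on the opposite strand, in Vim and Steap4, and in 1.41% of all 32851 RefSeq windows of that length. The STAT letters stood in Steap4 (TTCCCGGAA, at -116 to -108), and in 7.02% of all windows. The wider form stood in Gfap (TTCCCAAGAA, at -115 to -106) and Cd44 (TTCCTGGGAA, at -211 to -202), and in 5.85% of all windows. The AP-1 letters, held by 6.75% of all windows, were in no window of the 7 genes, and neither Fbln5 window held any of the 4 motifs. A match describes letters and not a bound site.

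**Figure D1:**
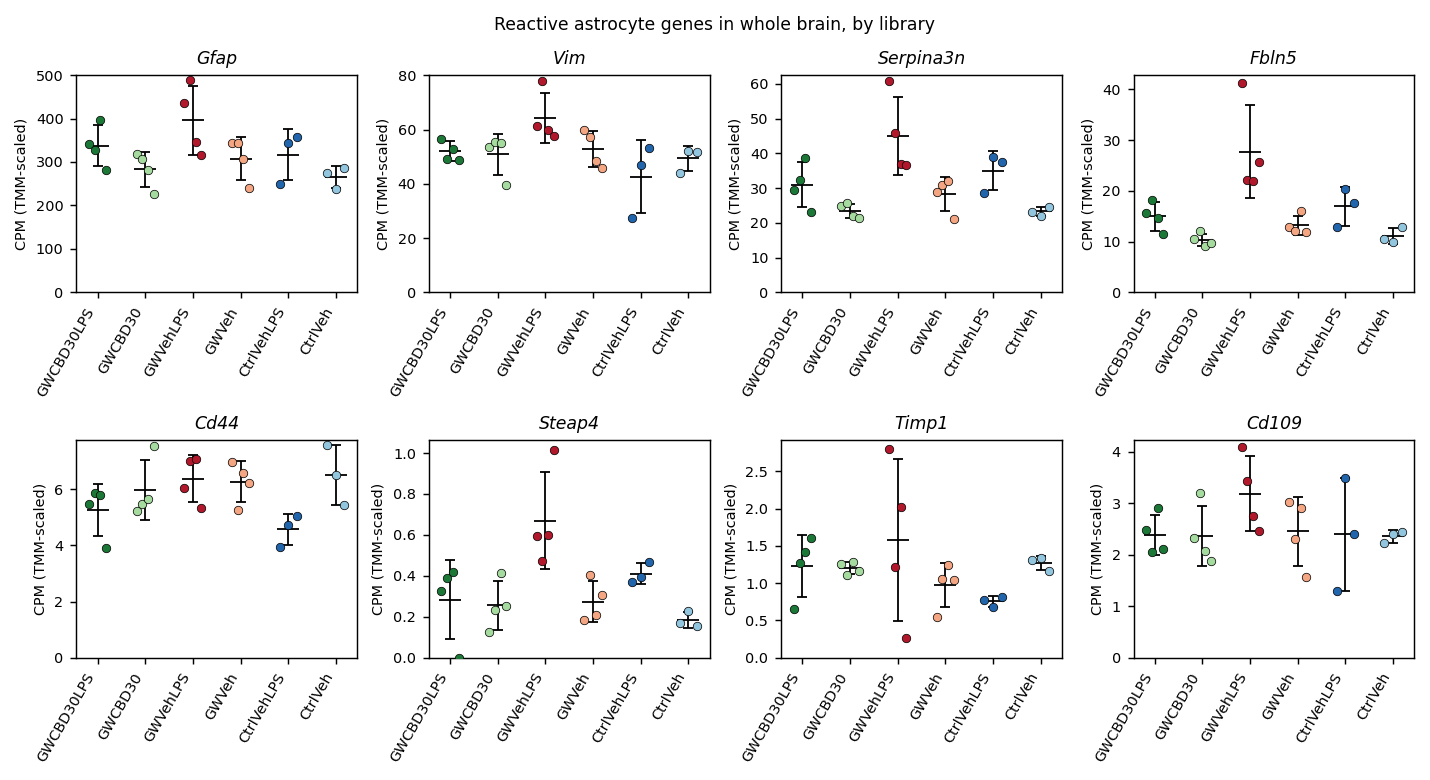
Each panel plots the CPM of 1 gene (y axis, starting at 0, TMM-scaled) in every library (points), with the mean and SD of each group as bars, for GWCBD30LPS, GWCBD30, GWVehLPS, GWVeh, CtrlVehLPS and CtrlVeh from left to right. GWVehLPS has the highest mean of every gene but Cd44, but Steap4 had to be high in the LPS groups to pass the low-count filter. Of the other 7 genes, only Fbln5 has GWVehLPS libraries, at 21.9 to 41.3 CPM, above those of every other group.

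LPS was compared with PBS in each arm. In exposed mice on vehicle, 1 of the 8 genes, Fbln5, rose with LPS, and 0 fell, where 0.939% of all genes were called. Fbln5, which encodes the elastic fibre organiser fibulin-5, had 41.3, 22.2, 21.9 and 25.6 CPM in GWVehLPS, against 12.9, 12.1, 15.95 and 11.9 CPM in GWVeh. Every LPS library lay above every PBS library, and replicate 1 stood highest. The log2 fold change was 1.07 ± 0.19 (SE, adjusted p = 0.00556, edgeR), and 0.81 (adjusted p = 0.00253) without GWVehLPS replicate 1. It did not pass in a fit to the GWVehLPS and GWVeh libraries alone (1.07, adjusted p = 0.0775) or with endothelial and mural scores as covariates (1.005, adjusted p = 0.414). The endothelial score (mean log2 CPM of 10 genes) was itself 3.61 to 3.83 in GWVehLPS and 3.31 to 3.45 in GWVeh. LPS and endothelial content therefore cannot be told apart in this arm, and values with these covariates do not settle the size of the response.

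Serpina3n, whose product is a secreted protease inhibitor, had 60.7, 45.99, 36.9 and 36.7 CPM in GWVehLPS, against 29.02, 30.9, 32.1 and 21.1 CPM in GWVeh. The groups did not overlap, but the log2 fold change of 0.68 ± 0.17 did not pass in edgeR (adjusted p = 0.0776), and it did in DESeq2 (adjusted p = 0.00273). Steap4 had 0.594, 0.473, 0.598 and 1.01 CPM in GWVehLPS, against 0.184, 0.402, 0.207 and 0.306 CPM in GWVeh, also without overlap (1.26 ± 0.53, adjusted p = 0.356). Leaving Steap4 aside, 2 of the other 7 genes (Fbln5 and Serpina3n) had groups without overlap, against 5.87% of all genes. Gfap, the main astrocyte filament, had 435, 488, 346 and 316 CPM in GWVehLPS, against 343, 343, 306 and 239 CPM in GWVeh. GWVehLPS replicate 4 lay within the GWVeh range, and the log2 fold change was 0.36 ± 0.16 (adjusted p = 0.448). It was 0.03, adjusted p = 0.985, with endothelial and mural covariates. Timp1, an inhibitor of matrix metalloproteinases, had 2.80, 1.22, 2.02 and 0.267 CPM in GWVehLPS, a wider range than in any other group, against 0.551, 1.05, 1.24 and 1.05 CPM in GWVeh. Its log2 fold change of 0.72 ± 0.38 (adjusted p = 0.528) was 0.28 without GWVehLPS replicate 1. Vim (0.28 ± 0.16) and Cd109 (0.38 ± 0.25) overlapped between the groups, and Cd44 lay within 1 SE of 0. Without Steap4, 7 of 7 log2 fold changes were positive with a median of 0.38, where 48.6% of all genes were positive. In edgeR 4 of the 8, Gfap, Serpina3n, Fbln5 and Steap4, had an unadjusted p under 0.05. Of these, Steap4 had to be higher with LPS to pass the low-count filter. Gfap (unadjusted p = 0.0402) ranked 1797 of 20026 genes by p, so at least 1797 genes stood at that level.

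In control mice 0 of the 8 genes were called with LPS by edgeR or DESeq2 and 1 (Fbln5) by limma voom. By edgeR 0.494% of all genes were called, and 3 of the 8 had an unadjusted p under 0.05. Serpina3n had 28.7, 39.05 and 37.4 CPM in CtrlVehLPS, against 23.2, 22.04 and 24.6 CPM in CtrlVeh. The groups stood apart (0.58 ± 0.20, adjusted p = 0.241, edgeR). Fbln5 had 12.8, 20.5 and 17.6 CPM in CtrlVehLPS, against 10.5, 10.00 and 12.96 CPM in CtrlVeh. Here the groups overlapped through CtrlVehLPS replicate 1, the library with the low cerebellar score (0.59 ± 0.23, adjusted p = 0.302). Once bulb and cerebellar scores entered the fit, the log2 fold change was 1.39 for Fbln5 (adjusted p = 0.00371) and 1.11 for Serpina3n (adjusted p = 0.177). The bulb score itself was 2.89 to 3.80 in CtrlVehLPS and 1.36 to 1.53 in CtrlVeh. In this arm LPS and bulb content therefore cannot be told apart, and these adjusted values do not settle the size of the LPS response. Cd44, the receptor for hyaluronan, had 3.96, 4.73 and 5.03 CPM in CtrlVehLPS, against 7.57, 6.50 and 5.43 CPM in CtrlVeh, with every LPS library below every PBS library (-0.51 ± 0.19, adjusted p = 0.236). Timp1 was also lower, at 0.675 to 0.819 CPM in CtrlVehLPS and 1.16 to 1.34 CPM in CtrlVeh (-0.74 ± 0.47), and Steap4 higher, at 0.370 to 0.468 CPM in CtrlVehLPS and 0.155 to 0.231 CPM in CtrlVeh (1.12 ± 0.68). Leaving Steap4 aside, 3 of the other 7 genes (Serpina3n, Cd44 and Timp1) had groups without overlap, against 17.3% of all genes with 3 libraries a side. Gfap differed by 0.25 ± 0.19, and Cd109 by an amount within 1 SE of 0. Vim differed by -0.23 ± 0.19, and by 0.0182 without CtrlVehLPS replicate 1. Without Steap4, 3 of 7 log2 fold changes were positive, with a median of -0.00996.

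In exposed mice on CBD, 0 of the 8 genes were called with LPS by edgeR, DESeq2 or limma voom, where edgeR called 0.00499% of all genes, and 2 had an unadjusted p under 0.05. None of the 8 had groups without overlap, against 6.24% of all genes. Fbln5 had 15.6, 18.3, 14.6 and 11.4 CPM in GWCBD30LPS, against 10.4, 12.02, 9.08 and 9.82 CPM in GWCBD30. GWCBD30LPS replicate 4 alone fell into the PBS range (0.54 ± 0.20, adjusted p = 0.503, edgeR). Serpina3n had 29.4, 32.4, 38.7 and 23.2 CPM in GWCBD30LPS, against 24.8, 25.7, 22.1 and 21.4 CPM in GWCBD30 (0.40 ± 0.18, adjusted p = 0.567). Replicate 4, the library of this group with a raised bulb score, was again the lowest with LPS. It also had 0 counts of Steap4, which allows up to 0.165 CPM. Gfap differed by 0.25 ± 0.16 and Cd44 by -0.17 ± 0.16, and Vim, Steap4, Timp1 and Cd109 lay within 1 SE of 0.

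Averaged over the arms with equal weight, 2 of the 8 genes rose with LPS and 0 fell, against 3.52% of all genes called. They were Fbln5 (0.73 ± 0.12, adjusted p = 0.00123, edgeR) and Serpina3n (0.55 ± 0.11, adjusted p = 0.00564). Fbln5 ran from 11.4 to 41.3 CPM with a median of 18.3 over the 11 LPS libraries, and from 9.08 to 15.95 CPM with a median of 11.9 over the 11 PBS libraries. Serpina3n ran from 23.2 to 60.7 CPM with a median of 36.9 with LPS, and from 21.1 to 32.1 CPM with a median of 24.6 with PBS. The libraries with raised bulb scores were all LPS libraries, so LPS and bulb content are not fully separated in this average. When single libraries were left out, the highest adjusted p was 0.00515 for Fbln5 and 0.0192 for Serpina3n. With endothelial and mural scores as covariates neither passed (Fbln5 0.70, adjusted p = 0.0659, and Serpina3n 0.51, adjusted p = 0.136). The endothelial score differed without overlap between GWVehLPS and GWVeh, so this fit cannot separate it from LPS in that arm. Gfap (0.29 ± 0.10, adjusted p = 0.129), Steap4 (0.86 ± 0.34, adjusted p = 0.167) and Cd44 (-0.22 ± 0.10, adjusted p = 0.221) did not pass in edgeR, and Gfap did in DESeq2 (adjusted p = 0.0495). Gfap was at 0.14, adjusted p = 0.704, with endothelial and mural covariates. Vim, Timp1 and Cd109 averaged within 1 SE of 0.

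**Figure D2:**
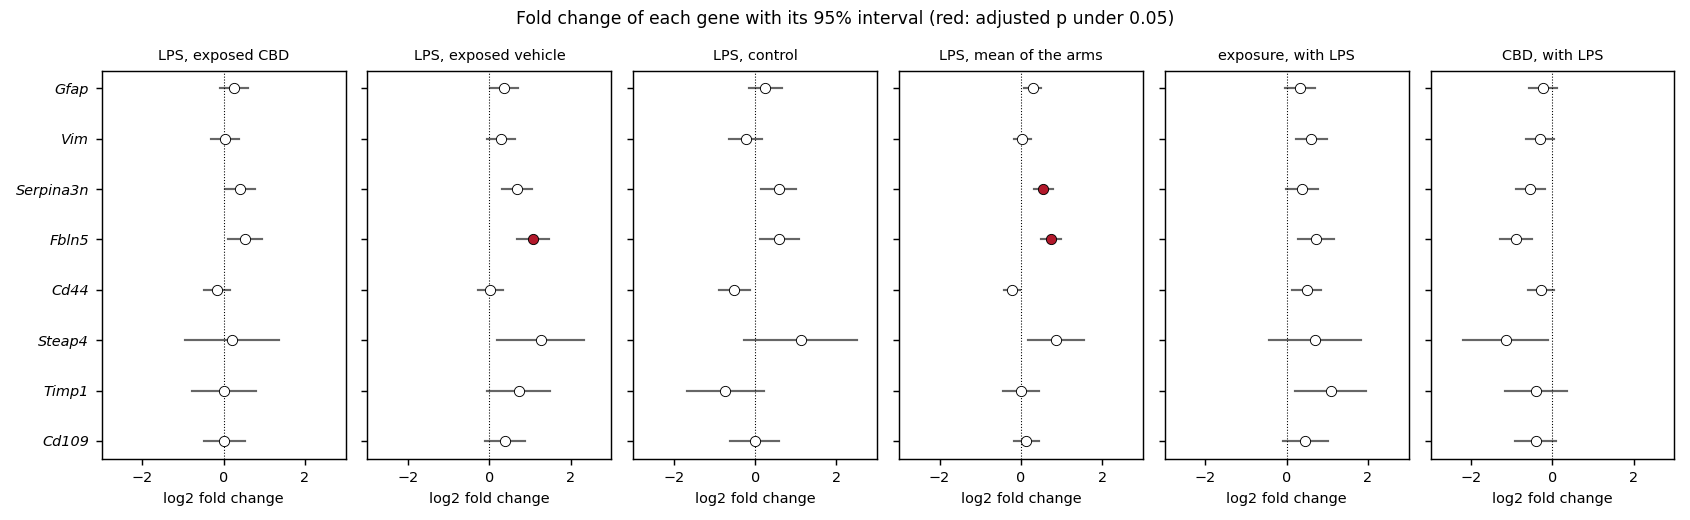
Log2 fold change (x axis) of each of the 8 genes (rows) with its 95% confidence interval, for LPS against PBS in exposed CBD, exposed vehicle and control mice and averaged over them, for exposure against control with LPS and for CBD against vehicle with LPS. Red points passed an adjusted p of 0.05: Fbln5 in exposed vehicle mice (1.07) and Fbln5 (0.73) and Serpina3n (0.55) in the average.

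Exposed mice on vehicle were then compared with controls. Without LPS, 0 of the 8 genes were called by edgeR, DESeq2 or limma voom, 0% of all genes were called by edgeR, and 0 of the 8 had an unadjusted p under 0.05. The libraries of GWVeh and CtrlVeh overlapped for each of the 8, where 9.40% of all genes did not overlap. Gfap had 343, 343, 306 and 239 CPM in GWVeh, against 275, 237 and 286 CPM in CtrlVeh (0.21 ± 0.18, 95% interval -0.17 to 0.59, adjusted p = 0.759). Serpina3n differed by 0.28 ± 0.19 (95% interval -0.12 to 0.68) and Fbln5 by 0.24 ± 0.22 (95% interval -0.22 to 0.70), and the other 5 lay within 1 SE of 0.

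With LPS, the means of the 7 genes other than Steap4 were higher in exposed mice than in controls, with a median log2 fold change of 0.49, where 50.5% of all genes were positive. By edgeR, DESeq2 and limma voom 0 of the 8 were called, where edgeR called 0.00499% of all genes. In edgeR 4 of the 8 had an unadjusted p under 0.05. The last of them, Timp1 (unadjusted p = 0.0176), ranked 653 of 20026 genes by p, so at least 653 genes stood at that level. Leaving Steap4 aside, 3 of the other 7 genes (Vim, Fbln5 and Cd44) had groups without overlap, against 5.41% of all genes. Vim, the filament of immature and reactive astrocytes, had 61.5, 77.7, 59.7 and 57.7 CPM in GWVehLPS, against 27.4, 46.9 and 53.3 CPM in CtrlVehLPS (0.61 ± 0.18, adjusted p = 0.449, edgeR). The lowest value belonged to CtrlVehLPS replicate 1, the library with the low cerebellar score, and without it the log2 fold change was 0.36. Fbln5, with 41.3, 22.2, 21.9 and 25.6 CPM in GWVehLPS, against 12.8, 20.5 and 17.6 CPM in CtrlVehLPS, differed by 0.72 ± 0.21 (adjusted p = 0.410), and by 0.46 without GWVehLPS replicate 1, its highest library. Cd44 had 6.05, 7.01, 7.08 and 5.34 CPM in GWVehLPS, against 3.96, 4.73 and 5.03 CPM in CtrlVehLPS (0.49 ± 0.17, adjusted p = 0.474). Without LPS its means were 6.26 ± 0.731 CPM in GWVeh (SD, n = 4) and 6.50 ± 1.07 CPM in CtrlVeh (SD, n = 3).

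Timp1 differed by 1.08 ± 0.43 (adjusted p = 0.537), and by 0.64 without GWVehLPS replicate 1. Cd109 had 4.09, 3.43, 2.76 and 2.45 CPM in GWVehLPS, against 1.29, 3.49 and 2.40 CPM in CtrlVehLPS (0.45 ± 0.27), and differed by 0.12 without CtrlVehLPS replicate 1. Serpina3n (0.37 ± 0.19), Gfap (0.33 ± 0.18) and Steap4 (0.69 ± 0.55) did not pass either. A single left-out library lowered Serpina3n to 0.19 (GWVehLPS replicate 1), Gfap to 0.18 (CtrlVehLPS replicate 1) and Steap4 to 0.44 (GWVehLPS replicate 4). Region markers moved with this comparison. The 12 bulb genes summed to 233.3 to 310.4 CPM in GWVehLPS and 299.3 to 405.2 CPM in CtrlVehLPS, the 12 cerebellar genes to 2609 to 3366 CPM in GWVehLPS and 921.2 to 2707 CPM in CtrlVehLPS, and the 6 choroid plexus genes to 492.0 to 755.4 CPM in GWVehLPS and 276.5 to 554.6 CPM in CtrlVehLPS. With the bulb and cerebellar scores in the fit, Vim was at 0.35, Fbln5 at 0.18, Gfap at 0.12, Serpina3n at 0.03, Cd109 at 0.0243 and Steap4 at -0.00823, and 0 of the 8 were called. Cd44 and Timp1 fell no lower than 0.37 and 0.64 in any of the 17 alternative fits, this one included. The part of choroid plexus in the result was not tested.

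CBD was compared with vehicle in exposed mice. Without LPS, 0 of the 8 genes were called by edgeR, DESeq2 or limma voom, 0% of all genes were called by edgeR, and 0 of the 8 had an unadjusted p under 0.05. The libraries of GWCBD30 and GWVeh overlapped for each of the 8, where 3.54% of all genes did not overlap. Fbln5 had 10.4, 12.02, 9.08 and 9.82 CPM in GWCBD30, against 12.9, 12.1, 15.95 and 11.9 CPM in GWVeh (-0.35 ± 0.20, 95% interval -0.78 to 0.07, adjusted p = 0.770). Serpina3n differed by -0.27 ± 0.18 (95% interval -0.64 to 0.10), and the other 6 lay within 1 SE of 0.

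With LPS, the means of the 7 genes other than Steap4 were lower in CBD-treated than in vehicle-treated exposed mice, with a median log2 fold change of -0.40, where 50.2% of all genes were positive. By edgeR 0 of the 8 were called, against 0.240% of all genes, and 3 (Serpina3n, Fbln5 and Steap4) had an unadjusted p under 0.05. Of these, Steap4 had to be higher in GWVehLPS to pass the low-count filter. Steap4 (unadjusted p = 0.0323) ranked 1016 of 20026 genes by p, so at least 1016 genes stood at that level. DESeq2 and limma voom each called 1, Fbln5. Fbln5 had 15.6, 18.3, 14.6 and 11.4 CPM in GWCBD30LPS, against 41.3, 22.2, 21.9 and 25.6 CPM in GWVehLPS, and the groups did not overlap. Its log2 fold change was -0.89 ± 0.19 (95% interval -1.29 to -0.49, adjusted p = 0.0570, edgeR), and it passed in DESeq2 (adjusted p = 0.000880) and limma voom (adjusted p = 0.0146). With GWVehLPS replicate 1, the highest library, left out it was -0.63 (adjusted p = 0.0924). It passed when GWVehLPS replicate 2 (adjusted p = 0.0354) or replicate 3 (adjusted p = 0.0322), which had raised bulb scores, was left out. It did not pass when GWCBD30LPS replicate 4, the other exposed LPS library with a raised bulb score, was left out (-0.79, adjusted p = 0.238), in a fit to the compared groups (-0.89, adjusted p = 0.380) or with endothelial and mural covariates (-0.85, adjusted p = 0.527). The endothelial score was 3.40 to 3.52 in GWCBD30LPS and 3.61 to 3.83 in GWVehLPS. CBD and endothelial content therefore cannot be told apart in this comparison.

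Serpina3n had 29.4, 32.4, 38.7 and 23.2 CPM in GWCBD30LPS, against 60.7, 45.99, 36.9 and 36.7 CPM in GWVehLPS. GWCBD30LPS replicate 3 alone reached the GWVehLPS range (-0.54 ± 0.17, adjusted p = 0.364). Vim had 56.7, 49.2, 52.9 and 48.9 CPM in GWCBD30LPS, against 61.5, 77.7, 59.7 and 57.7 CPM in GWVehLPS, a narrow separation (-0.31 ± 0.16, adjusted p = 0.754). Steap4 also stood apart, at 0 to 0.420 CPM in GWCBD30LPS and 0.473 to 1.01 CPM in GWVehLPS (-1.15 ± 0.51, adjusted p = 0.635). Leaving Steap4 aside, 2 of the other 7 genes (Vim and Fbln5) had groups without overlap, against 4.27% of all genes. Gfap had 342, 329, 396 and 282 CPM in GWCBD30LPS, against 435, 488, 346 and 316 CPM in GWVehLPS, with overlap (-0.23 ± 0.16, 95% interval -0.58 to 0.11). Cd109 (-0.42 ± 0.25) and Cd44 (-0.27 ± 0.16) overlapped as well. Gfap was at -0.0157 and Vim at -0.0221 with endothelial and mural covariates. Timp1 differed by -0.40 ± 0.37, and by 0.0370 without GWVehLPS replicate 1.

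The comparisons of LPS, exposure and CBD that include GWVehLPS share its 4 libraries, so their directions are not independent of each other. The differences between LPS responses were tested directly. The LPS response of exposed vehicle mice minus that of control mice gave 0 calls among the 8 genes by edgeR, DESeq2 or limma voom, where edgeR called 0% of all genes. In edgeR 2 of the 8 had an unadjusted p under 0.05, Timp1 (1.45 ± 0.60, adjusted p = 0.505) and Cd44 (0.53 ± 0.24, adjusted p = 0.563). Vim (0.51 ± 0.25), Fbln5 (0.48 ± 0.30) and Cd109 (0.39 ± 0.39) did not, and without CtrlVehLPS replicate 1 they were at 0.27, 0.31 and 0.07. Gfap, Serpina3n and Steap4 lay within 1 SE of 0. The LPS response of exposed CBD mice minus that of exposed vehicle mice also gave 0 calls among the 8 by these tools, against 0.0449% of all genes by edgeR, and 0 of the 8 had an unadjusted p under 0.05 in edgeR. Fbln5 had the smallest p of the 8 there (-0.54 ± 0.28, 95% interval -1.12 to 0.0429, adjusted p = 0.889). The difference was -0.28 ± 0.25 for Serpina3n, -0.25 ± 0.23 for Vim, -0.71 ± 0.54 for Timp1, -0.36 ± 0.35 for Cd109 and -1.05 ± 0.78 for Steap4, and Gfap and Cd44 lay within 1 SE of 0. Without GWVehLPS replicate 1 it was -0.27 for Fbln5, -0.10 for Serpina3n, -0.27 for Timp1 and -0.21 for Cd109. A difference between the arms in the LPS response of these 8 genes was not detectable with this number of mice.

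The other genes of the published reactive lists were read beside them: of 29 further genes, 27 were tested. With LPS in exposed vehicle mice 2 of the 27 rose and 0 fell, with a median log2 fold change of 0.27. Lcn2, an iron-scavenging acute-phase protein on the pan-reactive list, had 17.3, 4.13, 8.55 and 16.7 CPM in GWVehLPS, against 3.12, 0.201, 0.704 and 0.219 CPM in GWVeh (3.45 ± 0.74, adjusted p = 0.0313, edgeR). It no longer passed (adjusted p of 0.0793 to 0.116) when GWVeh replicate 2, 3 or 4 was left out, or GWVehLPS replicate 1 or 4. Blood leukocyte genes summed to 8.91 CPM in GWVeh replicate 1, 8.70 CPM in GWVehLPS replicate 4 and 2.24 CPM in GWVehLPS replicate 1. Which cells the Lcn2 reads came from was not tested. Cp, the copper-carrying ferroxidase ceruloplasmin, averaged 18.03 ± 1.26 CPM in GWVehLPS and 12.3 ± 1.41 CPM in GWVeh (SD, n = 4 each), and differed by 0.55 ± 0.12 on the log2 scale (adjusted p = 0.00888, and 0.0543 without GWVeh replicate 4). In control mice 1 of the 27 rose and 0 fell, with a median of 0.09. It was Fkbp5, a glucocorticoid-induced co-chaperone on the A1 list, with 34.8, 37.9 and 32.4 CPM in CtrlVehLPS, against 27.4, 22.9 and 20.96 CPM in CtrlVeh (0.56 ± 0.11, adjusted p = 0.00729). Leaving out CtrlVeh replicate 2 or 3 ended that call (adjusted p of 0.0718 to 0.104). Lcn2 was not called in control mice. It had 5.25 to 9.19 CPM in CtrlVehLPS and 0.815 to 4.84 CPM in CtrlVeh, without overlap, as had 17.3% of all genes. In exposed CBD mice 0 of the 27 passed in edgeR, with a median of -0.00639 and 2 at an unadjusted p under 0.05. In the average over the arms 3 rose and 0 fell: Fkbp5 (0.34 ± 0.06, adjusted p = 0.000349), the LPS co-receptor gene Cd14 (0.53 ± 0.14, adjusted p = 0.0203) and the small heat shock protein gene Hspb1 (0.38 ± 0.11, adjusted p = 0.0453). Cd14 did not pass without CtrlVeh or CtrlVehLPS replicate 3 (adjusted p of 0.0572 to 0.0675), nor Hspb1 in 14 of the 22 fits with a library left out (adjusted p of 0.0520 to 0.138). With endothelial and mural covariates Lcn2 (adjusted p = 0.297) and Cp (adjusted p = 0.482) did not pass in exposed vehicle mice, nor Cd14 (adjusted p = 0.198) and Hspb1 (adjusted p = 0.385) in the average. In a fit to the compared groups Lcn2 in exposed vehicle mice (adjusted p = 0.233) and Fkbp5 in control mice (adjusted p = 0.0551) did not pass.

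For CBD with LPS 2 of the 27 fell and 0 rose, with a median of -0.34. Lcn2 had 0.520, 0.684, 0.726 and 0.445 CPM in GWCBD30LPS, against 17.3, 4.13, 8.55 and 16.7 CPM in GWVehLPS, and the lowest vehicle library was above the highest CBD library (-4.27 ± 0.79, adjusted p = 0.0339, edgeR). It did not pass (adjusted p of 0.0729 to 0.153) when GWVehLPS replicate 1 or 4 or any 1 of the 4 GWCBD30LPS libraries was left out. Cp averaged 11.1 ± 1.21 CPM in GWCBD30LPS and 18.03 ± 1.26 CPM in GWVehLPS (SD, n = 4 each), and differed by -0.70 ± 0.12 on the log2 scale (adjusted p = 0.00137). Both are pan-reactive genes, and neither passed with endothelial and mural covariates (adjusted p = 0.184 for Lcn2 and 0.0992 for Cp). For exposure, 0 of the 27 passed in edgeR with LPS (median 0.19, 8 at an unadjusted p under 0.05) or without it (median -0.07, 0 at an unadjusted p under 0.05). For CBD without LPS it was also 0, with a median of -0.0409 and 1 at an unadjusted p under 0.05.

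**Figure D3:**
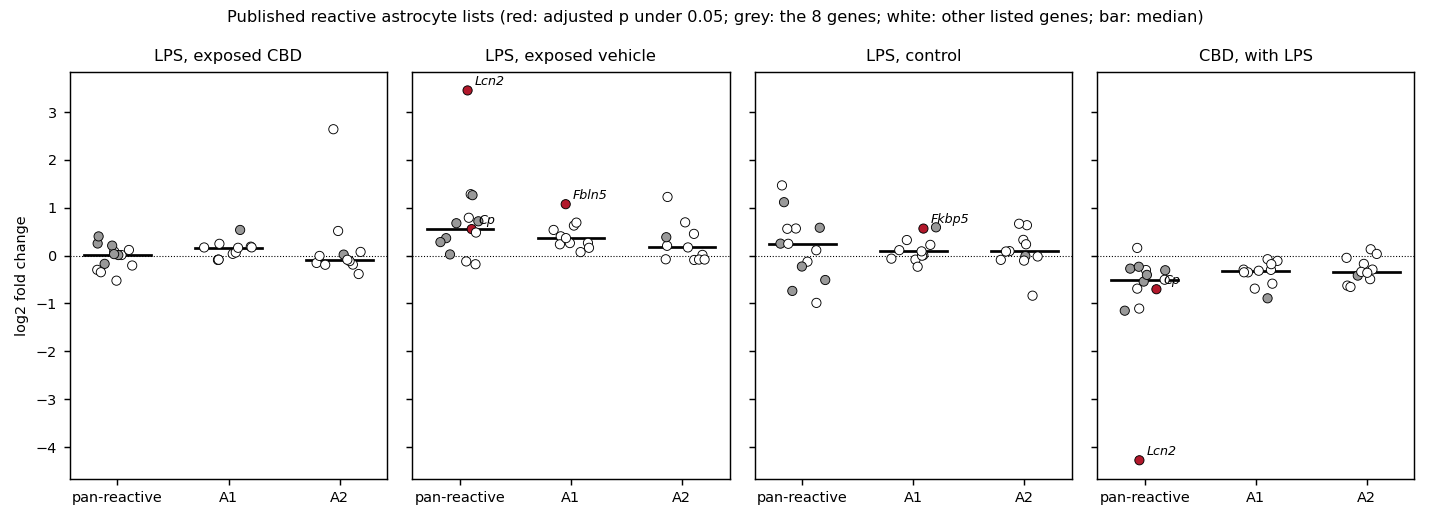
Log2 fold change (y axis) of the tested genes of the pan-reactive, A1 and A2 lists (columns of points, with the median as a bar) for LPS in exposed CBD, exposed vehicle and control mice and for CBD with LPS. Red points passed an adjusted p of 0.05, grey points are those of the 8 genes that did not and white points are the other listed genes. Lcn2 lies at 3.45 with LPS in exposed vehicle mice and at -4.27 for CBD with LPS.

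Of 15 genes of IL-6 family signalling, 12 were tested. In the average over the arms 3 rose with LPS and 0 fell: Cntfr, a receptor subunit for ciliary neurotrophic factor (0.22 ± 0.05, adjusted p = 0.0142, edgeR), the IL-6 receptor gene Il6ra (0.39 ± 0.11, adjusted p = 0.0313) and the transcription factor gene Stat3 (0.16 ± 0.05, adjusted p = 0.0390). Il6ra and Stat3 did not pass in 10 and 11 of the 22 fits with a library left out (adjusted p of up to 0.0733 and 0.0959). None of the 3 passed with endothelial and mural covariates (Cntfr 0.10, adjusted p = 0.514, Il6ra 0.39, adjusted p = 0.204, and Stat3 0.08, adjusted p = 0.574). In the other 9 comparisons 0 of the 12 passed in edgeR, and the 3 with the smallest p are given for each. With LPS they were Osmr (0.79 ± 0.21), Il6ra (0.59 ± 0.17) and Cntfr (0.23 ± 0.09), with adjusted p of 0.0698 to 0.284, in exposed vehicle mice. In control mice they were Stat3 (0.23 ± 0.09), Osmr (0.56 ± 0.24) and Cntfr (0.18 ± 0.10), with adjusted p of 0.241 to 0.474, and in exposed CBD mice Cntfr (0.25 ± 0.09), Il6ra (0.35 ± 0.18) and Bcl3 (-0.85 ± 0.45), with adjusted p of 0.418 to 0.628. Osmr, the oncostatin M receptor, had 4.20, 5.63, 4.51 and 5.02 CPM in GWVehLPS, against 2.98, 1.51, 3.03 and 3.59 CPM in GWVeh, without overlap. For CBD with LPS they were Bcl3 (-1.84 ± 0.43), Osmr (-0.69 ± 0.21) and Socs3 (-0.50 ± 0.21), with adjusted p of 0.0562 to 0.584. Bcl3 is an I-kappa-B family protein and Socs3 the feedback inhibitor of STAT3. For CBD without LPS they were Cntfr (-0.18 ± 0.09), Osmr (0.45 ± 0.22) and Lif (-0.80 ± 0.41), each with an adjusted p of 0.752. For exposure they were Cntfr (0.16 ± 0.09), Pim1 (0.38 ± 0.23) and Il6st (0.09 ± 0.06), with adjusted p of 0.719 to 0.787, with LPS, and Il6ra (-0.34 ± 0.19), Lifr (-0.13 ± 0.09) and Osmr (-0.35 ± 0.24), with adjusted p of 0.609 to 0.684, without it. In the exposure difference in LPS response they were Il6ra (0.36 ± 0.26), Pim1 (0.41 ± 0.32) and Il6st (0.11 ± 0.09), with adjusted p of 0.749 to 0.771, and in the CBD difference Osmr (-1.14 ± 0.30), Bcl3 (-1.65 ± 0.60) and Lif (1.24 ± 0.58), with adjusted p of 0.366 to 0.853. The numbers of the 12 at an unadjusted p under 0.05 were 6, 2 and 1 with LPS in exposed vehicle, control and exposed CBD mice, 4 and 2 for CBD with and without LPS, 0 for exposure with or without LPS, and 0 and 3 for the exposure and CBD differences in LPS response.

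Of 6 microglial or growth-factor inducers of the reactive state, 4 were tested. C1qa, a chain of complement C1q, had 70.6, 73.9, 67.1 and 64.4 CPM in GWVehLPS, against 39.7, 35.7, 38.95 and 30.4 CPM in GWVeh (0.93 ± 0.09, adjusted p = 3.16e-08, edgeR). It rose in control mice too (0.85 ± 0.10, adjusted p = 1.18e-05) and in the average (0.69 ± 0.05, adjusted p = 2.27e-10). It was lower with CBD under LPS, at 43.02, 46.5, 45.1 and 39.6 CPM in GWCBD30LPS, against 70.6, 73.9, 67.1 and 64.4 CPM in GWVehLPS (-0.66 ± 0.09, adjusted p = 0.000121). The CBD difference in LPS response of C1qa was -0.66 ± 0.12 (adjusted p = 0.0293, and up to 0.134 with a library left out). Tgfb1, a cytokine that induces astrocyte scar genes, had 8.18, 8.31, 8.41 and 8.38 CPM in GWVehLPS, against 4.87, 6.18, 4.39 and 4.02 CPM in GWVeh (0.78 ± 0.17, adjusted p = 0.0137). It did not pass without GWVeh replicate 3 or 4 (adjusted p of 0.0680 to 0.0763), and it rose in the average (0.48 ± 0.10, adjusted p = 0.00564). With endothelial and mural covariates it passed in neither, at 0.22, adjusted p = 0.860 in exposed vehicle mice and 0.22, adjusted p = 0.464 in the average. In the other comparisons 0 of the 4 passed in edgeR. The 3 with the smallest p in exposed CBD mice were C1qa (0.27 ± 0.09), Tgfb2 (0.29 ± 0.10) and Il1a (0.47 ± 0.49), with adjusted p of 0.409 to 0.841. For exposure with LPS they were Tgfb2 (0.28 ± 0.11), C1qa (0.15 ± 0.09) and Il1a (0.43 ± 0.49), with adjusted p of 0.494 to 0.889, and without LPS Tgfb2 (-0.14 ± 0.11), C1qa (0.07 ± 0.10) and Tgfb1 (-0.11 ± 0.19), with adjusted p of 0.714 to 0.894. For CBD without LPS they were Tgfb1 (0.26 ± 0.18), Il1a (0.18 ± 0.51) and Tgfb2 (-0.0155 ± 0.10), with adjusted p of 0.782 to 0.988, and for the exposure difference in LPS response Tgfb2 (0.43 ± 0.15), Tgfb1 (0.25 ± 0.26) and Il1a (0.50 ± 0.75), with adjusted p of 0.445 to 0.897. Those at an unadjusted p under 0.05 numbered 2, 1, 0, 0 and 1 in these 5 comparisons.

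Markers of other cells moved in the same comparisons. With LPS in exposed vehicle mice the 10 endothelial genes summed to 197.7 to 225.6 CPM in GWVehLPS, against 156.3 to 182.6 CPM in GWVeh, and 2 rose, Pecam1 (0.69 ± 0.13, adjusted p = 0.00408, edgeR) and Slco1a4 (0.37 ± 0.09, adjusted p = 0.0452). For CBD with LPS they summed to 175.4 to 184.2 CPM in GWCBD30LPS, against 197.7 to 225.6 CPM in GWVehLPS, and 2 fell, Cldn5 (-0.59 ± 0.12, adjusted p = 0.0132) and Pecam1 (-0.82 ± 0.14, adjusted p = 0.00129). The 10 mural genes, 9 of them tested, summed to 120.9 to 131.6 CPM in GWCBD30LPS, 115.7 to 135.0 CPM in GWVehLPS and 111.3 to 138.1 CPM in GWVeh. Of these 0 passed in edgeR in either comparison, with 0 for CBD and 1 for LPS at an unadjusted p under 0.05. The 9 fibroblast and meningeal genes summed to 103.1 to 113.2 CPM in GWCBD30LPS, 99.3 to 129.9 CPM in GWVehLPS and 105.9 to 129.0 CPM in GWVeh. Microglial genes (6) summed to 190.7 to 220.1 CPM in GWCBD30LPS and 160.3 to 183.9 CPM in GWCBD30, to 213.5 to 278.6 CPM in GWVehLPS and 157.6 to 176.8 CPM in GWVeh, and to 234.6 to 254.1 CPM in CtrlVehLPS and 159.9 to 166.7 CPM in CtrlVeh. The 7 blood leukocyte genes, 3 of them tested, summed to 0.650 to 1.33 CPM in GWCBD30LPS and 1.47 to 8.70 CPM in GWVehLPS. No gene of these lists was at 0 in all libraries. The fits with endothelial and mural scores cannot separate these cells from LPS or CBD where the endothelial score differs without overlap. Otherwise, the part of these cells in the differences of the 8 genes was not tested.

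Within groups, several of the 8 genes varied together from library to library. As a description over the 22 libraries after group means were subtracted, Gfap correlated with Serpina3n (r = 0.82, rho = 0.75), Cd109 (r = 0.77, rho = 0.77) and Vim (r = 0.77, rho = 0.77), and Serpina3n with Cd109 (r = 0.78) and Fbln5 (r = 0.74). Cd44, Steap4 and Timp1 had r between -0.28 and 0.34 with one another and with the other 5. Gfap had r = 0.83 with the score of the 15 astrocyte identity genes and 0.89 with that of 5 oligodendrocyte genes, and Vim 0.71 and 0.80. Fbln5 had r = -0.70 with the bulb score, 0.10 with the endothelial score and 0.06 with the mural score. All these points share library, depth and tissue makeup.

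Among 15934 candidates with a mean of at least 1 CPM, the genes most like each of the 8 were found by the same correlation over the 22 libraries. For Gfap they were Prr18 (0.92), C1ql1 (0.91) and Mbp (0.91), and for Vim Lgi3 (0.94), Samd14 (0.92) and Col1a2 (0.91). For the inhibitor gene Serpina3n they were Cdk3 (0.86), Gm13112 (0.83) and Gfap (0.82), and for Fbln5 Ak3 (0.81), Echdc3 (0.80) and Pnpla7 (0.80). For Cd44 they were Gfpt1 (0.82), Rchy1 (0.75) and Rnmt (0.74), for Steap4 Cars2 (0.81), Gm47232 (0.79) and B230312C02Rik (0.77), for Timp1 Antxr1 (0.84), Bank1 (0.82) and Cttnbp2nl (0.81) and for Cd109 Cdk3 (0.80), Nkx6-1 (0.80) and Col9a3 (0.79). Mbp, among those of Gfap, encodes myelin basic protein of oligodendrocytes, and Col1a2, among those of Vim, a fibrillar collagen of fibroblasts.

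**Figure D4:**
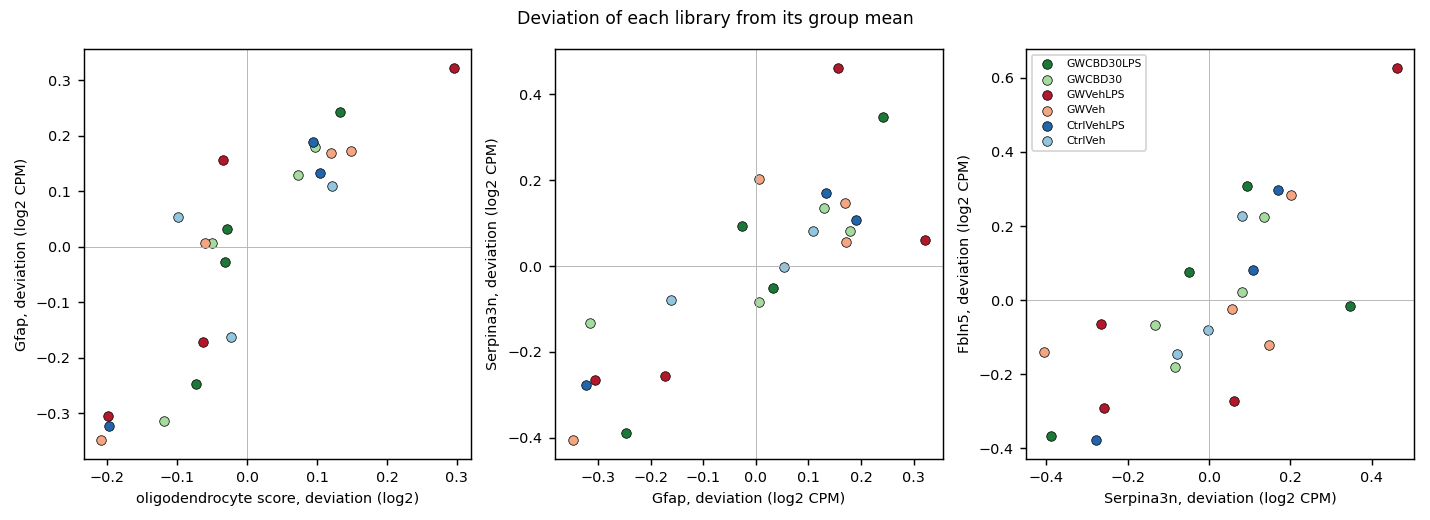
Deviation of each of the 22 libraries from its group mean, in log2 units, for Gfap (y axis) against the oligodendrocyte score, Serpina3n against Gfap and Fbln5 against Serpina3n, coloured by group. The points lie along rising bands (r = 0.89, 0.82 and 0.74).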

How the data were processed

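Poly(A)-selected, stranded libraries from whole brain of 22 mice were read as pairs of 150 bases, with RNA integrity of 8.5 or more, per the labels' protocols. The build was GRCm38 (mm10), per the submitters' processing notes. Aligner, counter, strand setting and annotation are not given in the sources used. The deposited table holds raw counts of reads per gene, seen from its whole numbers, and 0 of its columns belonged to other samples. Reads are not molecules, and the floors of 3 counts cover counting error only. Each library is labelled as a mouse of its own, and p-values and 95% intervals of the fit measure the spread between these mice.

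edgeR 4.0.16 in R 4.3.3 fitted a robust quasi-likelihood model of 6 group means to all 22 libraries, after filterByExpr by group (minimum count 10) and TMM scaling (16 residual degrees of freedom, biological coefficient of variation 0.103). The 10 contrasts were tested two-sided and adjusted by Benjamini-Hochberg over all 20026 genes, with 0.05 as the threshold. The SE of a log2 fold change is its size over the square root of F, and scores used a prior count of 2. The code was tested on simulated data. Gene coordinates are from GENCODE M21 on GRCm38, and promoters from RefSeq (GRCm38.p6).

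The 8 genes and all lists were chosen with earlier results of these data known. By rule the text names the 8 genes, the further reactive-list genes past the threshold, the signalling and inducer genes past it or else the 3 with the smallest p, and the 3 genes most like each of the 8. Fold changes of the 8 under 1 SE are given as such. Many more genes had an unadjusted p under 0.05 than were called. Counts at that level therefore cannot be set against the shares of all genes called. The share of all genes at that level is not given, so these counts do not show enrichment. Ranks by p, where given, are lower bounds only. Over all genes, same-numbered libraries did not deviate together, so the numbers were not used as pairs in the main fit. Alternatives were RLE and upper-quartile scaling, no filter and a strict one (1 CPM in 3 libraries), DESeq2 1.42.0, limma 3.58.1 voom with quality weights, a fit to the compared groups, a replicate block, covariates for bulb and cerebellum or for endothelial and mural cells, and each library left out. A fit that left out the exposed LPS libraries with raised bulb scores was chosen after seeing the data. The endothelial score did not overlap between GWVehLPS and either GWVeh or GWCBD30LPS. In comparisons of these groups, a call lost with endothelial and mural covariates therefore cannot tell cell content from treatment.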

Additional observations from a re-analysis of the deposited data

Results flagged for a closer look

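Among 32 sets of 4 libraries (8 genes in each of the 4 exposed groups), 1 held a library that stood apart by Dixon's criterion, which picks about 1 in 20 such sets by chance. It was Vim in GWCBD30 replicate 4, at 39.5 CPM with the next library at 53.5 CPM, a gap of 0.882 of the group's range.

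The LPS response of C1qa differed between the arms. The response in exposed CBD mice minus that in exposed vehicle mice was -0.66 ± 0.12 (SE, adjusted p = 0.0293, edgeR). C1qa had 43.02, 46.5, 45.1 and 39.6 CPM in GWCBD30LPS and 40.4, 39.3, 33.3 and 30.9 CPM in GWCBD30, against 70.6, 73.9, 67.1 and 64.4 CPM in GWVehLPS and 39.7, 35.7, 38.95 and 30.4 CPM in GWVeh. The test was not passed (adjusted p of 0.0634 to 0.134) when any 1 of GWVeh replicates 2 and 4, GWVehLPS replicate 1, GWCBD30 replicates 1 and 2 or GWCBD30LPS replicates 1 and 4 was left out. With endothelial and mural covariates the difference was -0.40 (adjusted p = 0.581).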

How the results depend on the processing

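Of 1565 pairs of a fold change (73 in all) and an alternative, 1457 kept their direction and side of the threshold, 85 lost their call, 14 gained one and 9 changed sign, all 9 of uncalled members of the 8. With bulb and cerebellar covariates these were Vim with LPS in control mice (0.00853), Steap4 for exposure with LPS (-0.00823), and Fbln5 (-0.16) and Cd109 (-0.13) in the exposure difference in LPS response. With endothelial and mural covariates they were Vim with LPS in exposed vehicle mice (-0.0369) and in the CBD difference in LPS response (0.0361), and with limma voom Cd109 in the exposure difference (-0.00980). With single libraries left out, Vim with LPS in control mice ran from -0.42 to 0.0182 and Timp1 for CBD with LPS from -0.73 to 0.0370. The cause was not tested.

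The number of the 8 genes called with LPS in control mice was 1 with limma voom and with bulb and cerebellar covariates. In exposed vehicle mice it was 2 with DESeq2, the replicate block and bulb and cerebellar covariates, and 0 in a fit to the compared groups and with endothelial and mural covariates, which also gave 0 in the average. For CBD with LPS it was 1 without a filter, with DESeq2, limma voom, bulb and cerebellar covariates and without the exposed LPS libraries with raised bulb scores, and 0 to 1 with single libraries left out. Over all genes, same-numbered libraries correlated at -0.0647 to 0.133. For Gfap, Vim and Serpina3n, however, replicate 4 was the lowest library in each exposed group. What same-numbered libraries have in common is not given, and its part in these genes was not tested further. With the replicate block Serpina3n with LPS in exposed vehicle mice (0.68, adjusted p = 0.00912) and Gfap in the average (0.29, adjusted p = 0.0255) passed.

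Counts over all genes, other than with single libraries left out, were 30 to 694 with LPS in control mice (99 as reported), 22 to 359 in exposed vehicle mice (188), 0 to 87 in exposed CBD mice (1) and 193 to 1463 in the average (705). They were 0 to 176 for exposure without LPS (0), 0 to 118 with LPS (1), 8 to 158 for CBD with LPS (48), and 0 to 82 (0) and 0 to 42 (9) for the exposure and CBD differences in LPS response. Steap4, whose 0 to 19 counts limit its precision, could not be fitted under the strict filter, and the average has no fit to compared groups of its own.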

Other observations

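Astrocyte identity genes mark the cell type and not its reactive state. In the average over the arms 6 of 15 rose with LPS and 0 fell: Ndrg2 (0.29 ± 0.05, adjusted p = 0.000738, edgeR), the glycolytic enzyme gene Aldoc (0.26 ± 0.05, adjusted p = 0.00224), the glutamine synthetase gene Glul (0.23 ± 0.04, adjusted p = 0.000650), the growth factor receptor gene Fgfr3 (0.23 ± 0.04, adjusted p = 0.000752), the gap junction gene Gjb6 (0.23 ± 0.05, adjusted p = 0.00293) and the glutamate transporter gene Slc1a3 (0.13 ± 0.04, adjusted p = 0.0314). Their summed level lay at 8283 to 8714 CPM in GWCBD30LPS and 7128 to 7533 CPM in GWCBD30, at 8451 to 9382 CPM in GWVehLPS and 7291 to 8308 CPM in GWVeh, and at 8327 to 8649 CPM in CtrlVehLPS and 7593 to 7932 CPM in CtrlVeh. In each arm the LPS libraries lay above the PBS libraries by this sum. By the mean log2 CPM of the 15 genes the control arm overlapped, at 8.03 to 8.20 in CtrlVehLPS and 8.04 to 8.10 in CtrlVeh. The exposed arms stayed apart, at 8.19 to 8.34 in GWVehLPS and 7.96 to 8.17 in GWVeh, and at 8.14 to 8.21 in GWCBD30LPS and 7.94 to 8.03 in GWCBD30. Sox9, a transcription factor of astrocyte fate, was higher in GWVehLPS than in CtrlVehLPS (0.49 ± 0.08, adjusted p = 0.0283, edgeR). It was the only 1 of all genes called in that comparison. With bulb and cerebellar covariates 0 genes were called there, Sox9 included, and with single libraries left out 0 to 24 were.

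The 6 ependymal genes mark the cells that line the ventricles, which also hold Vim and Gfap. They summed to 18.2 to 20.9 CPM in GWCBD30LPS and 10.7 to 17.9 CPM in GWCBD30, to 19.7 to 27.4 CPM in GWVehLPS and 13.5 to 23.9 CPM in GWVeh, and to 16.9 to 22.1 CPM in CtrlVehLPS and 14.7 to 19.5 CPM in CtrlVeh. Of the 6, 1 rose with LPS in the average, the ciliogenesis factor gene Foxj1 (0.36 ± 0.10, adjusted p = 0.0285).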
